A study of Mus musculus with 17 samples.

Results

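The kinesin motor family was followed through 17 RNA sequencing libraries of CD1 mice, 7 from oocytes and 10 from hippocampus. Members were taken by gene symbol (Kif followed by a number, with or without a letter, and Kifc followed by a number), which matched 40 of the 24491 genes counted. All 40 matched 1 protein-coding gene of the mouse annotation. By their textbook roles 13 were placed with the spindle and cytokinesis, 17 with cargo transport, 6 with cilia and Hedgehog signalling and 4 with none of these. All mice were wild type. Each oocyte library was made from about 10 oocytes arrested in meiosis II. They came from 48-week-old females given rapamycin at 2 mg/kg by intraperitoneal injection for 40 weeks from week 8 (rapamycin oocytes, n = 3), from untreated 48-week-old females (aged oocytes, n = 2) and from 4-week-old females (young oocytes, n = 2). All females were superovulated with PMSG followed by hCG, at 10 IU of each in 48-week-old and 5 IU in 4-week-old mice, so hormone dose cannot be told apart from age. Cumulus cells were removed with hyaluronidase. Hippocampus came from adult female offspring of 40 to 44 weeks whose mothers were rapamycin-treated aged (rapamycin offspring, n = 3), untreated aged (aged offspring, n = 3) or young females (young offspring, n = 4); the offspring themselves received no treatment. The labels do not say whether offspring of a group shared a litter, or whether oocytes of a library were pooled from several females.

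Kinesins are motors that use ATP to walk along or take apart microtubules, and nearly all of them move towards the plus end. In dividing cells they push spindle poles apart, align chromosomes and build the midzone at which the cell is cut, and the mouse oocyte does this without centrioles while it sheds a polar body. In neurons, which no longer divide, other members carry vesicles, mitochondria and receptors down axons and dendrites, often through light chains and adaptor proteins.

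Oocyte libraries held 3912163 to 8334873 counts and hippocampus libraries 16434398 to 20220617 counts, of which kinesins took 0.150% to 0.364% and 0.681% to 1.13%. Levels are given as TPM, counts per exon length scaled to a fixed sum, when genes are compared, and as CPM, counts scaled by library size with TMM factors, when groups of 1 tissue are compared. The 12 oocyte markers listed, the zona pellucida genes among them, summed to 6201 to 35383 CPM in oocytes and at most 1.06 CPM in hippocampus. The 10 neuron markers summed to 312 to 642 CPM in oocytes and 11747 to 14108 CPM in hippocampus. Most of the oocyte sum was Tubb3, at 249 to 592 CPM, the only one of them with a higher median in oocytes (401 CPM) than in hippocampus (292 CPM). Slc17a7, Gad1 and Nefl were at 0 in all 7 oocyte libraries. The library rapamycin oocyte 1 stood apart: its log2 CPM correlated across genes with those of the other oocyte libraries at r = 0.728 to 0.785, while each of the other 6 reached 0.939 to 0.975 with their nearest library. Its oocyte markers summed to 6201 CPM, against 27848 to 35383 CPM in the other 6. Results in oocytes are therefore also given without it.

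Spindle motors made up most kinesin transcripts of oocytes and transport motors those of hippocampus. Every spindle kinesin that could be tested was higher in oocytes, while 12 of 17 transport kinesins were lower there and 3 were higher. Members high in 1 tissue could enter this test through that tissue alone. Of members that passed the low-count filter in each tissue separately, 8 of 8 spindle kinesins were higher in oocytes. Of 12 such transport kinesins, 7 were lower and 3 higher. In the edgeR fit of all 17 libraries, 38 kinesins were tested; 16 were called higher in oocytes and 17 lower at an adjusted p of 0.05. Among all 16672 genes tested, 32.9% were called higher and 55.8% lower, and 88.8% in either direction. The median gene lay at a log2 fold change of -1.43, against which each kinesin is to be read. The median of the 12 spindle kinesins tested was 7.51 and that of the 17 transport kinesins -3.20 on the log2 scale. All 12 spindle kinesins and 6 of 17 transport kinesins lay above the median gene. Setting Kif1a, the 1 member tested with 0 counts in a tissue, at the bound given with its values leaves the transport median as it is. Without rapamycin oocyte 1, 17 kinesins were higher and 17 lower, against 33.7% and 57% of genes. Kif2b, a mitotic microtubule depolymerase, had 0 counts in all 17 libraries, and Kif12 had 1 count in young offspring 2; neither was tested. With all libraries thinned to 3912163 counts, the kinesin counts were again 16 higher and 17 lower, of 37 tested. The members differed: Kif18b was then not tested, and Kif2a was called higher. With library totals in place of TMM scaling, 15 kinesins were higher and 20 lower, beside 4586 and 10349 of the 16672 genes. Tissue and library chemistry cannot be told apart in this contrast: oocyte cDNA was made full length by template switching and amplified, hippocampus mRNA was selected with poly-T beads and fragmented.

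**Figure D1:**
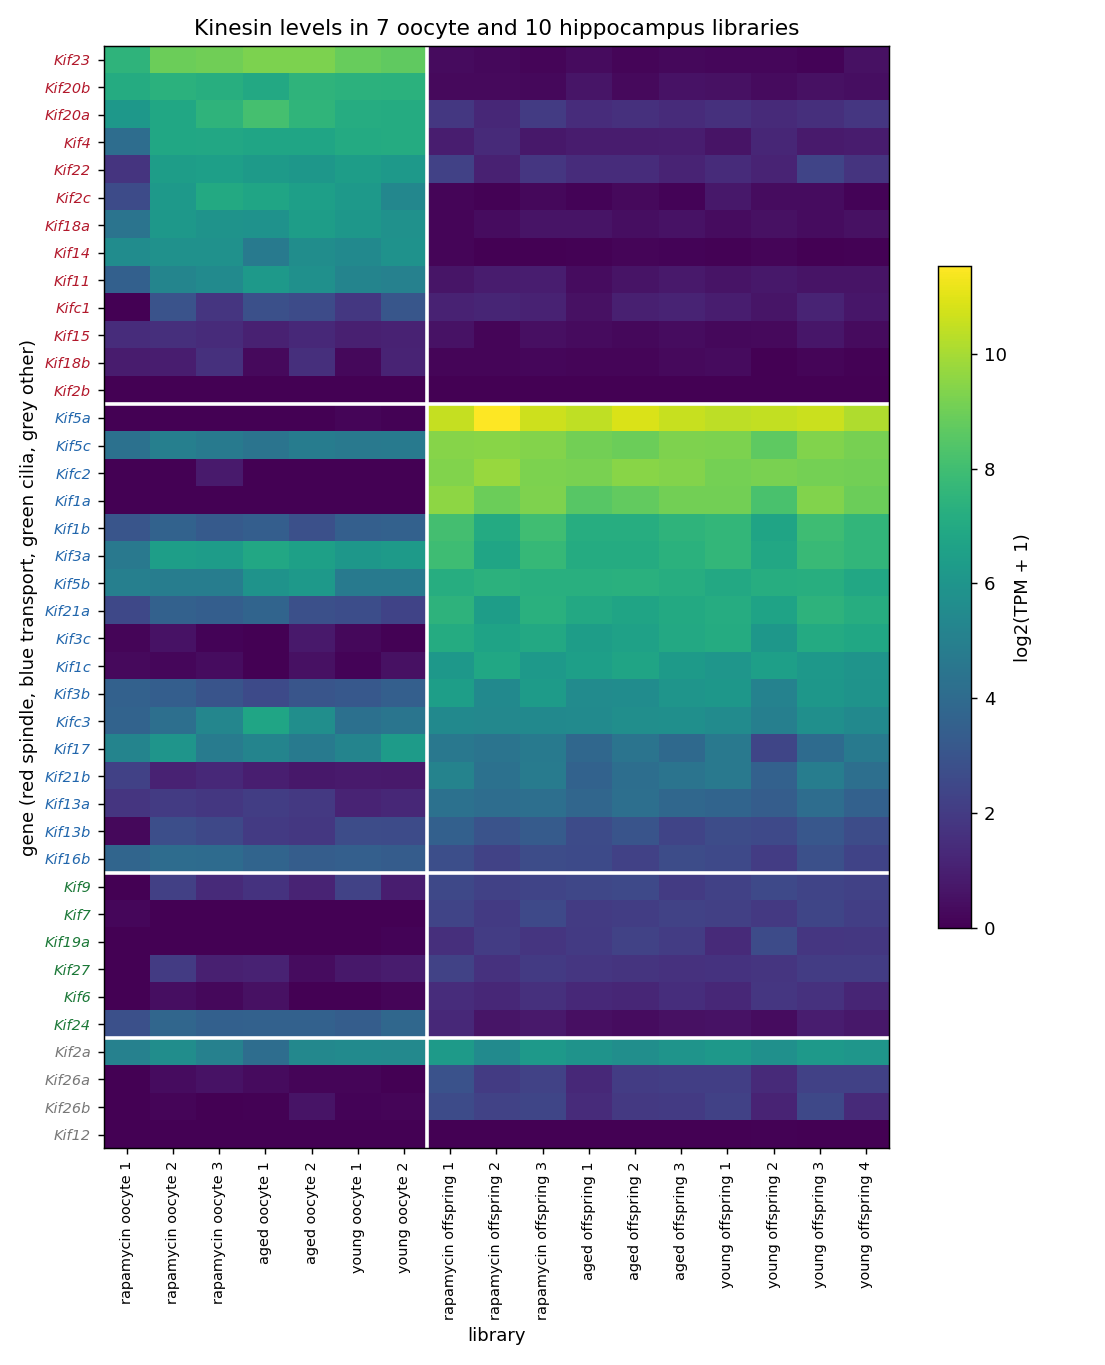
Levels of the 40 kinesins as log2(TPM + 1), with genes as rows grouped by role and the 7 oocyte and 10 hippocampus libraries as columns. Kif23 reached 615 TPM in aged oocyte 2 and Kif5a 2938 TPM in rapamycin offspring 2, the brightest cells of the spindle and transport blocks.

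**Figure D2:**
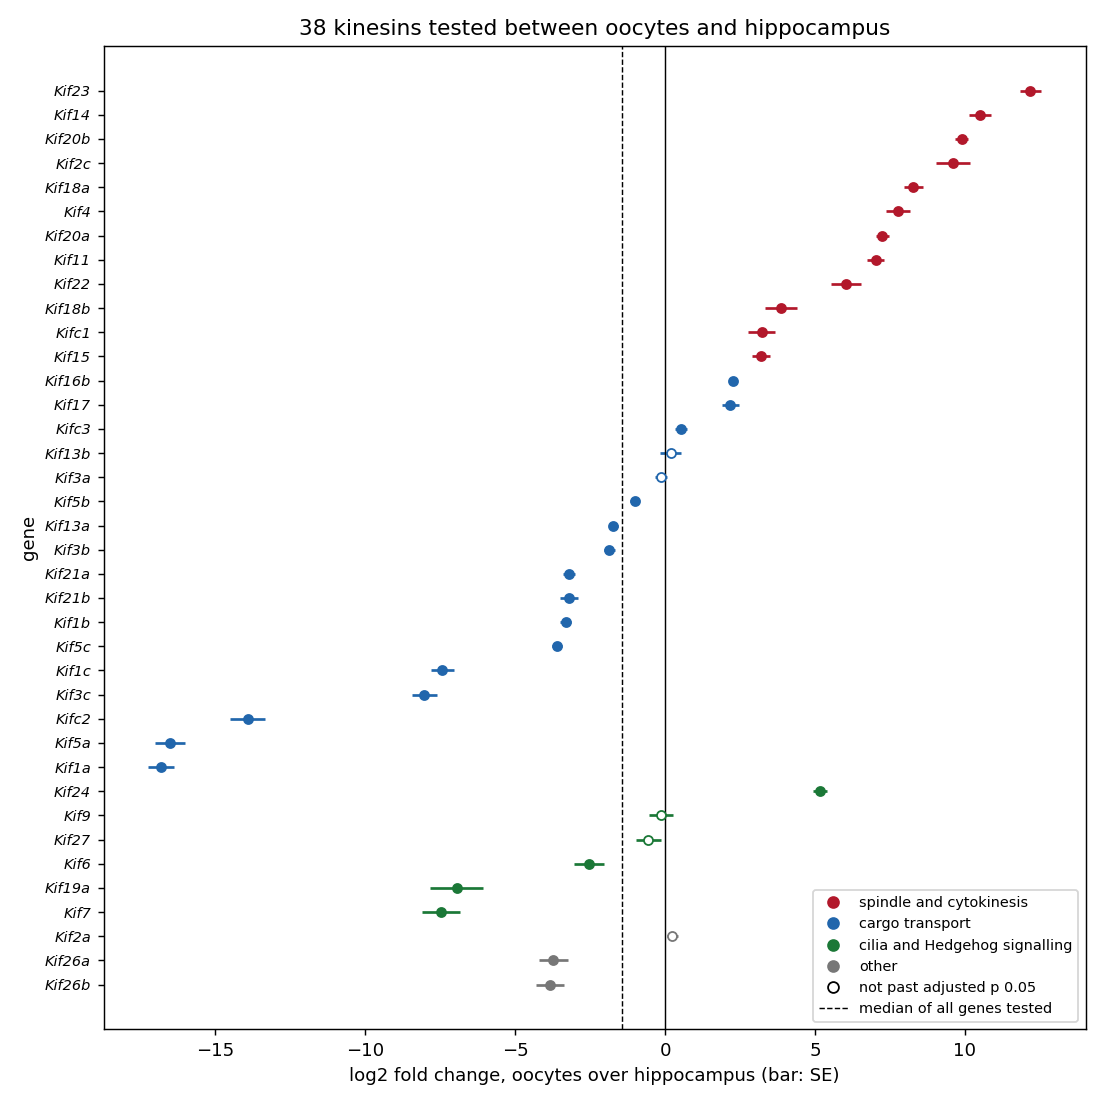
log2 fold change of oocytes over hippocampus for the 38 kinesins tested, with bars for the standard error and open points for members not past an adjusted p of 0.05. All 12 spindle kinesins lie to the right of 0, and the dashed line marks the median of all genes tested at -1.43.

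Kif23, the motor of the centralspindlin complex that bundles midzone microtubules, was the most abundant kinesin of oocytes. The gene lies on the minus strand of chromosome 9 at 61915905 to 61946774 (GRCm38, GENCODE M21). It measured 180, 493.2 and 615 TPM (lowest, median and highest of 7 oocyte libraries), against 0.0846, 0.169 and 0.420 TPM in 10 hippocampus libraries. The lowest oocyte library, rapamycin oocyte 1, was still far above every hippocampus library. The means were 470 ± 147 TPM in oocytes and 0.196 ± 0.0994 TPM in hippocampus (SD, n = 7 and 10), and the log2 fold change was 12.18 ± 0.35 (SE, edgeR adjusted p = 8.28e-15). Kif23 took 26.0% to 34.2% of all kinesin TPM in an oocyte library. In hippocampus its level rested on 71 counts over all 10 libraries.

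Kif20a, which carries the chromosomal passenger complex to the midzone, had 69.6, 139 and 279 TPM in oocytes, against 1.40, 1.97 and 3.00 TPM in hippocampus. Kif20b, a motor of late cytokinesis, had 124, 161 and 180 TPM in oocytes, against 0.183, 0.288 and 0.583 TPM in hippocampus. Neither gene overlapped between the tissues, at log2 fold changes of 7.24 ± 0.21 for Kif20a and 9.90 ± 0.22 for Kif20b (edgeR adjusted p = 1.14e-14 and 8.11e-16). Kif14, which works with citron kinase in cytokinesis, had 24.8, 48.4 and 56.9 TPM in oocytes, against 0, 0.0532 and 0.125 TPM in hippocampus. Its log2 fold change of 10.51 ± 0.36 rested on 29 counts over the hippocampus libraries (edgeR adjusted p = 5.32e-14). Chromosome motors came next: Kif4, a chromokinesin that partners condensin, had a median of 115 TPM in oocytes and 0.854 TPM in hippocampus. Kif2c, the depolymerase of the kinetochore, had medians of 74.8 TPM in oocytes and 0.141 TPM in hippocampus. Kif18a, which damps chromosome movement, had medians of 59.7 TPM in oocytes and 0.391 TPM in hippocampus.

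Kif22, the chromokinesin that pushes chromosome arms from the poles, had 2.29, 76.6 and 89.4 TPM in oocytes, against 1.10, 1.77 and 4.09 TPM in hippocampus. The tissues overlapped only through rapamycin oocyte 1, the library at 2.29 TPM; the next lowest oocyte library had 67.5 TPM. The fold change was 6.03 ± 0.49 on the log2 scale (edgeR adjusted p = 2.52e-09). Kif11, the motor that slides antiparallel microtubules to separate the poles, had 10.6, 36.7 and 71.9 TPM in oocytes, against 0.286, 0.550 and 0.889 TPM in hippocampus. Its backup Kif15 was scarce in both tissues, at 1.00 to 1.97 TPM in oocytes and 0.0982 to 0.607 TPM in hippocampus. Kifc1, a minus-end motor that focuses spindle poles, had 0, 5.13 and 7.50 TPM in oocytes, against 0.438, 1.06 and 1.27 TPM in hippocampus, and Kif18b 0.193, 0.867 and 2.07 TPM, against 0, 0.123 and 0.269 TPM. Both pairs of ranges overlapped, although edgeR called both higher in oocytes. Kifc1 shares sequence with Kifc5b, and 73.9% of its 75-base words occur in no other annotated transcript, so its counts are uncertain.

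Spindle genes of somatic cells are known to carry CCAAT boxes and the cell cycle element TTTGAA before their starts. The 250 bases upstream of each start were therefore searched for both, on either strand. RefSeq windows for GRCm38.p6 were at hand for 32 of the 40 kinesins. None was at hand for the transport motors Kif5a, Kif5b, Kif13b, Kif21b, Kifc2 and Kifc3, for Kif19a or for Kif20a. CCAAT was found in 8 of 12 spindle kinesins and in 3 of 11 transport kinesins, against 34.5% of 27025 genes. TTTGAA was found in 5 of 12 spindle kinesins and in 0 of 11 transport kinesins, against 16.3% of genes. Cilia kinesins had CCAAT in 3 of 5 and TTTGAA in 1 of 5, and members placed in no list had each motif in 1 of 4. These are descriptions of letters, not of binding, and 5 windows (Kif14, Kif17, Kif27, Kif2c and Kif4) lie inside the gene as annotated by GENCODE. Those of Kif14, Kif27 and Kif2c are among the windows with TTTGAA. The windows shown hold no annotated exon, and their motifs are in capitals: Kif23, the most abundant spindle motor (chr9:61946800-61947049, minus strand), Kif11 (chr19:37376132-37376381, plus strand), and for contrast Kif5c, a transport motor with neither motif (chr2:49619036-49619285, plus strand). Counted back from the start, Kif23 has a CCAAT box on the opposite strand at -7, and Kif11 has one at -45 followed by TTTGAA at -19, both on the opposite strand.
Kif23: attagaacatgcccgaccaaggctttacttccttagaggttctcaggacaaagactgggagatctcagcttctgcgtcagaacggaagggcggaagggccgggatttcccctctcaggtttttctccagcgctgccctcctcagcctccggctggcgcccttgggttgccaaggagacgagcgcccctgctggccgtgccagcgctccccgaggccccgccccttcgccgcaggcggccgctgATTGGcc
Kif11: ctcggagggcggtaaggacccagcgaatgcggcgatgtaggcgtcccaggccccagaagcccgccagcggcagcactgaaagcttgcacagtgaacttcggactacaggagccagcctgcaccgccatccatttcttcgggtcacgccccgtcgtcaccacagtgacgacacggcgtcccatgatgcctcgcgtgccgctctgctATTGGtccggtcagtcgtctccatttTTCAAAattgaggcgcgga
Kif5c: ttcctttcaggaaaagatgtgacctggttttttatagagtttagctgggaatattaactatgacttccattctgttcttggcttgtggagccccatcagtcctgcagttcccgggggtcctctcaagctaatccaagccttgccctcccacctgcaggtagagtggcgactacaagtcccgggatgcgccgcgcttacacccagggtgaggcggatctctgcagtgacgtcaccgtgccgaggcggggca

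The conventional kinesin heavy chains, which carry many cargoes through light chains, were all called lower in oocytes, by very different amounts. Kif5a, the form most tied to neurons (chromosome 10, 127225696 to 127263348, minus strand), had 0 TPM in 5 of 7 oocyte libraries, 0.0987 TPM in young oocyte 1 and 0.0555 TPM in young oocyte 2, against 1136, 1497 and 2938 TPM in hippocampus. These were 2 counts over all oocytes, and the ratio of hippocampus over oocytes was 32321, with a 95% counting interval of 8947 to 266882. Kif5c (chromosome 2, 49619298 to 49774778, plus strand) had 18.6, 25.4 and 30.8 TPM in oocytes, against 407, 610 and 720 TPM in hippocampus, which came to -3.59 ± 0.16 on the log2 scale (edgeR adjusted p = 1.48e-12). Kif5b, the form found in most cells, was near Kif5c in oocytes outside the aged libraries. It had 25.2, 28.1 and 74.7 TPM in oocytes, against 119, 145 and 171 TPM in hippocampus, with the 2 aged libraries as the highest oocytes. At -1.01 ± 0.15 it was called lower in oocytes (edgeR adjusted p = 4.40e-06) but lay above the median gene.

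Kif1a, the carrier of synaptic vesicle precursors (chromosome 1, 93015464 to 93101951, minus strand), had 0 counts in all 7 oocyte libraries and 217433 counts in hippocampus, at 294, 512 and 755 TPM. Against a floor of 3 counts over the oocyte group it was at least 9122-fold higher in hippocampus than in oocytes. Its relatives differed: Kif1b, which also carries mitochondria, had 6.09, 9.83 and 11.3 TPM in oocytes, against 104, 184 and 268 TPM in hippocampus, while Kif1c, a vesicle motor, had 0, 0.206 and 0.427 TPM in oocytes, against 61.2, 74.5 and 114 TPM in hippocampus. Kifc2, a minus-end motor of neurons, was detected in 1 oocyte library, rapamycin oocyte 3, at 0.805 TPM, against 529, 601 and 851 TPM in hippocampus. Its log2 fold change of -13.91 ± 0.58 rested on 6 oocyte counts (edgeR adjusted p = 4.22e-12).

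In heterotrimeric kinesin-2, Kif3a pairs with Kif3b or, in neurons, Kif3c. Kif3a was the most abundant transport kinesin of oocytes, at 24.4, 80.6 and 118 TPM, against 108, 179 and 244 TPM in hippocampus. The difference in the fit was -0.12 ± 0.20 on the log2 scale (edgeR adjusted p = 0.576), and the TPM ranges overlapped. With library totals Kif3a was called lower in oocytes, at -0.82 with an adjusted p of 0.00285. Its partners did not share that level: Kif3b had 4.94, 8.08 and 11.03 TPM in oocytes, against 33.9, 61.0 and 86.9 TPM in hippocampus, and Kif3c 0, 0.101 and 0.719 TPM, against 67.5, 118 and 136 TPM. The log2 fold changes were -1.85 ± 0.20 for Kif3b and -8.03 ± 0.41 for Kif3c (edgeR adjusted p = 9.66e-08 and 6.19e-12). Kif3c shares 2617 exon bases with an antisense gene, and 61.1% of its 75-base words are its own.

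The transport kinesins called higher in oocytes were Kif17, Kif16b and Kifc3. Kif17, known in neurons for moving the NMDA receptor subunit Grin2b in dendrites, had 25.2, 35.6 and 78.1 TPM in oocytes, against 4.23, 20.4 and 25.8 TPM in hippocampus. The ranges met only at their edges, with aged oocyte 2 at 25.2 TPM and rapamycin offspring 3 at 25.8 TPM, and the log2 fold change was 2.17 ± 0.29 (edgeR adjusted p = 1.77e-06). Kif16b, a motor of early endosomes, had 9.12, 12.0 and 15.6 TPM in oocytes, against 3.11, 4.88 and 5.95 TPM in hippocampus, without overlap, at 2.28 ± 0.14 (edgeR adjusted p = 6.36e-11). Kifc3, a minus-end motor of vesicles and cell junctions, had a median of 21.1 TPM in oocytes and 44.3 TPM in hippocampus. Its call of 0.54 ± 0.20 (edgeR adjusted p = 0.0202) did not hold with library totals in place of TMM scaling, where it was -0.15 with an adjusted p of 0.519. Kif13a and the microtubule growth regulators Kif21a and Kif21b were called lower in oocytes, at -1.72 ± 0.16, -3.20 ± 0.20 and -3.21 ± 0.29. Kif13b was not called, at 0.18 ± 0.33 (edgeR adjusted p = 0.612), and was -0.50 with library totals.

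The 6 kinesins of the cilia list, which does not hold Kif3a, Kif3b or Kif17, were low in both tissues. Kif24, which in human cells removes centriolar microtubules and restrains cilium growth, was the highest of them in oocytes, with 5.98, 10.96 and 13.4 TPM, against 0.290, 0.523 and 1.51 TPM in hippocampus. It was 5.17 ± 0.23 higher on the log2 scale (edgeR adjusted p = 1.35e-12). Kif7, a regulator of Gli factors at the cilium tip, and Kif19a, which limits cilium length, had 1 count each over all oocytes, against medians of 3.45 and 2.77 TPM in hippocampus. The ratios of hippocampus over oocytes were 93.8 for Kif7 (95% counting interval 16.8 to 3708) and 69.2 for Kif19a (12.4 to 2739). Kif6, a motor of ependymal cilia, was lower in oocytes at -2.54 ± 0.50 (edgeR adjusted p = 0.000135) with 11 oocyte counts. Kif9 and Kif27, both linked to motile cilia, were not called, at -0.13 ± 0.40 and -0.55 ± 0.41 (edgeR adjusted p = 0.763 and 0.215). With library totals Kif27 was called lower, at -1.24 (edgeR adjusted p = 0.0124).

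Of the members placed in no list, Kif2a, a microtubule depolymerase that acts at spindle poles and also trims neuronal processes, was present in both tissues. It had 16.5, 41.1 and 49.4 TPM in oocytes, against 45.0, 63.2 and 75.6 TPM in hippocampus. The fit gave 0.24 ± 0.18 (edgeR adjusted p = 0.214), and the sign turned to -0.47 with library totals, with an adjusted p of 0.0196. In thinned libraries Kif2a was called the other way, at 0.48 with an edgeR adjusted p of 0.0151. Kif26a and Kif26b, motor-like proteins that bind microtubules without walking, were near the floor in oocytes (14 and 20 counts) and had medians of 3.42 and 3.30 TPM in hippocampus.

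Summed over the family, kinesin transcripts came to 692 to 1887 TPM in oocytes and 3519 to 5933 TPM in hippocampus. The spindle list made up 78.2% ± 3.72 of kinesin TPM in oocytes and 0.190% ± 0.0316 in hippocampus (SD, n = 7 and 10), with ranges of 71.0% to 82.0% and 0.121% to 0.226%. The transport list made up 18.2% ± 3.13 in oocytes and 97.9% ± 0.374 in hippocampus. Without rapamycin oocyte 1 the spindle share of oocytes was 79.3% ± 2.14 (SD, n = 6). Kif5a alone was 29.9% to 49.5% of kinesin TPM in hippocampus, with rapamycin offspring 2 at 49.5% and the next library, aged offspring 2, at 41.3%. In whole tissue, fewer cells of a type and less RNA per cell cannot be told apart.

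**Figure D3:**
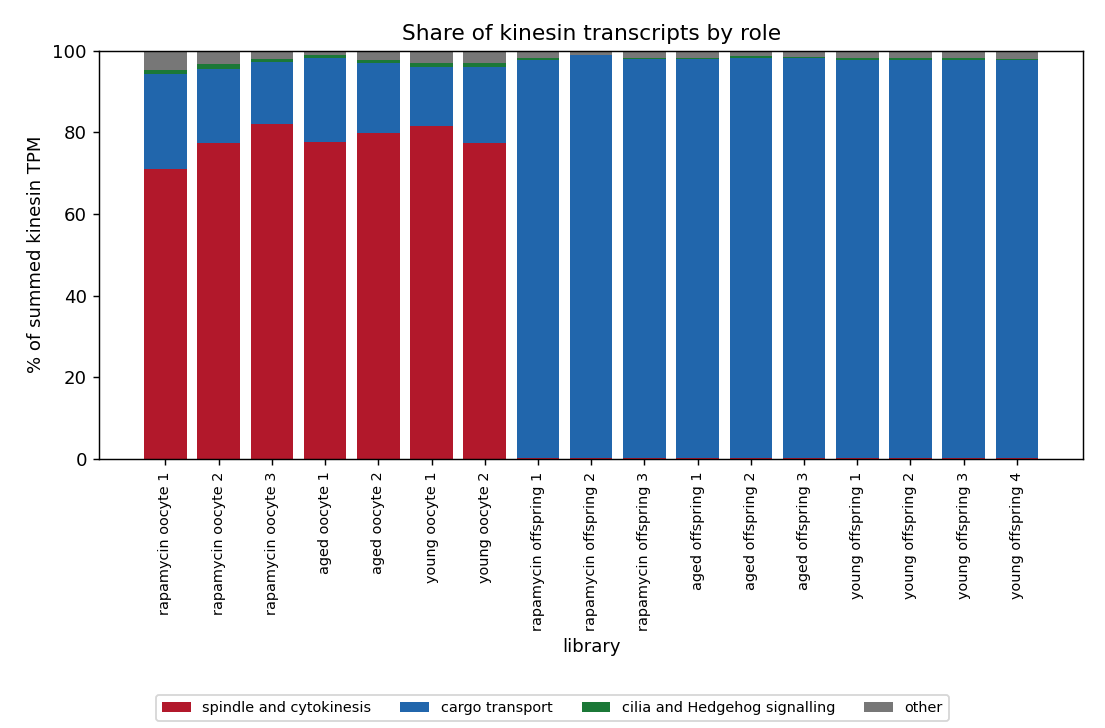
Share of summed kinesin TPM by role, as stacked bars in percent, 1 bar per library with oocytes left of hippocampus. The spindle share lies between 71.0% and 82.0% in every oocyte library and at most 0.226% in hippocampus.

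Partner proteins were counted in the same fit, in which 32.9% of all genes were called higher and 55.8% lower. Of 26 spindle partners, 25 were called higher in oocytes and 0 lower, with a median log2 fold change of 7.88 against -1.43 over all genes. Ect2, a cytokinesis factor recruited by centralspindlin, had 57.3, 135 and 160 TPM in oocytes, against 0.241, 0.401 and 0.655 TPM in hippocampus. Prc1, the midzone crosslinker that Kif4 binds, had medians of 390 TPM in oocytes and 0.373 TPM in hippocampus. Of 8 light chains and accessory proteins, 1 was higher and 6 lower. The higher one was Cenpe, itself a kinesin of the kinetochore that the symbol rule does not take, with 176, 207 and 273 TPM in oocytes, against 0.527, 0.988 and 1.60 TPM in hippocampus. Klc1, a light chain of conventional kinesin, had medians of 16.99 TPM in oocytes and 711 TPM in hippocampus, and Kifap3, the subunit that completes kinesin-2, 1.58 TPM in oocytes and 322 TPM in hippocampus. Of 20 cargo adaptors, 2 were higher and 17 lower, among them Hap1, Mapk8ip2 and Ppfia3, with medians of 0 TPM in oocytes and 225, 292 and 122 TPM in hippocampus. Cytoplasmic dynein and dynactin, the opposing motor, had 5 genes higher and 18 lower of 26, with a median of -1.78, close to that of all genes. The dynein regulator Ndel1 had medians of 235 TPM in oocytes and 107 TPM in hippocampus.

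Within oocytes, no kinesin passed the threshold for age or for rapamycin. In edgeR, 26 kinesins were tested and 0 were called in each comparison, against 0.268% of all 10083 genes for aged against young, 0% for rapamycin against aged and 0.426% for rapamycin against young. At an unadjusted p under 0.05 there were 2, 3 and 0 kinesins. DESeq2 called 1 kinesin, Kif5b, higher in aged against young (1.71% of genes were called higher and 2.86% in either direction). It called 0 for rapamycin against aged (0.109% of genes) and for rapamycin against young (2.41%). The biological coefficient of variation was 49.5%.

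Kif5b and Kifc3 stood highest in aged oocytes. Kif5b had 85.5, 64.4 and 63.9 CPM in rapamycin oocytes, 149 and 175 CPM in aged oocytes and 63.3 and 60.6 CPM in young oocytes. Both aged libraries were above all 5 others, and the rapamycin libraries lay just above the young ones. Aged oocytes averaged 162 ± 18.8 CPM and young oocytes 61.9 ± 1.90 CPM (SD, n = 2 each), a log2 fold change of 1.39 ± 0.37 with an edgeR adjusted p of 0.259. Kifc3 had 22.3, 27.0 and 58.2 CPM in rapamycin oocytes, 180 and 79.6 CPM in aged oocytes and 30.6 and 33.4 CPM in young oocytes. The aged libraries again stood above all others but were themselves far apart, and the change was 2.01 ± 0.61 with an edgeR adjusted p of 0.304. Rapamycin against aged, which shares the aged libraries with the comparison above, gave -1.19 ± 0.33 for Kif5b and -1.85 ± 0.53 for Kifc3 (edgeR adjusted p = 0.730 for both).

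The result for age depended on the library that stood apart. Without rapamycin oocyte 1, both Kif5b and Kifc3 passed in edgeR for aged against young, at 1.39 and 2.00 with adjusted p of 0.0118 and 0.0249. That was 2 of 27 kinesins, against 6.27% of genes called higher. With only the aged and young libraries fitted, the adjusted p were 0.0126 and 0.0156, again 2 kinesins, against 7.13% of genes. DESeq2 without rapamycin oocyte 1 was a setting chosen after the data had been seen. In it Kif5b, Kifc3 and Kif11 passed as higher for aged against young (9.26% of genes), and Kif5b and Kifc3 as lower for rapamycin against aged (1.02% of genes). The 1.02% is of all 10220 genes, of which only 5068 received an adjusted p in that comparison.

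A further 4 kinesins had both aged libraries above the other 5. They were the pole-separating Kif11, Kif20a and Kif23 of the midzone, and Kif3a, making 6 of 26 with Kif5b and Kifc3, against 9.69% of all genes, and 0 of 26 lay below, against 7.83%. Kif20a had 108, 144 and 221 CPM in rapamycin oocytes, 374 and 236 CPM in aged oocytes and 190 and 174 CPM in young oocytes. Kif11 had 28.4, 78.7 and 94.2 CPM in rapamycin oocytes, 166 and 120 CPM in aged oocytes and 84.6 and 72.3 CPM in young oocytes. In both genes the aged libraries were high but differed between themselves. Kif20a differed by -0.95 ± 0.40 between rapamycin and aged oocytes, and Kif11 by 0.87 ± 0.57 between aged and young oocytes (edgeR adjusted p = 0.730 and 0.587). Kif20a shares 1271 exon bases with Cdc23 on the other strand, which had 7.80 to 18.2 CPM in oocytes. Whether counting used strand is not given in the sources used here.

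**Figure D4:**
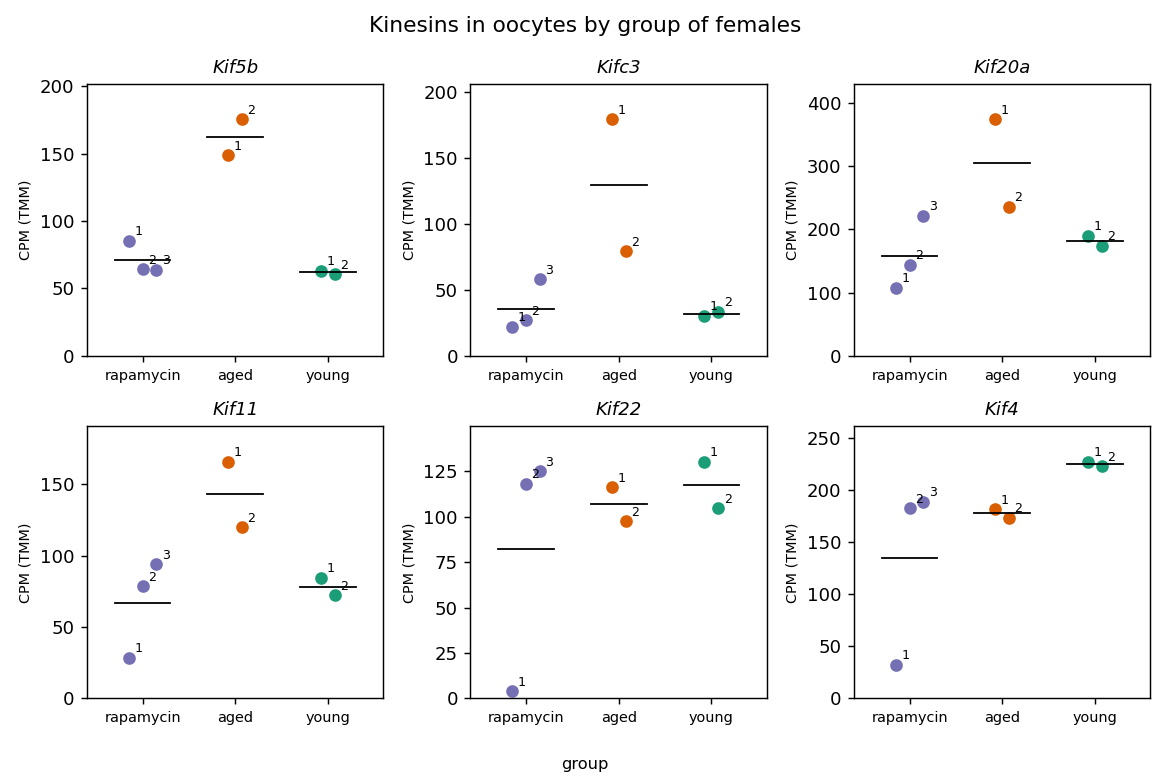
TMM-scaled CPM of 6 kinesins in oocytes, with points numbered by library, bars for group means, and rapamycin, aged and young groups from left to right. Kif5b and Kifc3 are highest in both aged libraries, while Kif22 and Kif4 are lowest in rapamycin oocyte 1, at 4.02 and 32.4 CPM.

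Kif13a, Kif21b and Kif16b had the smallest p in rapamycin against young oocytes and did not pass. Kif13a, an endosome motor, had 6.97, 6.98 and 6.01 CPM in rapamycin oocytes, 8.33 and 6.5 CPM in aged oocytes and 3.04 and 3.48 CPM in young oocytes. Both groups of 48-week-old females were above young oocytes without overlap, at log2 fold changes of 1.02 ± 0.48 for rapamycin and 1.17 ± 0.52 for aged against the shared young libraries (edgeR adjusted p = 0.583 and 0.438). Kif21b had 16.4, 4.01 and 5.26 CPM in rapamycin oocytes, against 3.04 and 2.67 CPM in young oocytes, and its change of 1.56 ± 0.74 became 0.72 without rapamycin oocyte 1. Kif16b had 39.8 to 40.7 CPM in rapamycin oocytes, against 29.3 and 24.7 CPM in young oocytes (0.58 ± 0.35, edgeR adjusted p = 0.648). Over all 26 kinesins tested, groups did not overlap in 10 higher and 6 lower for aged against young (29.6% and 31.7% of all genes), 4 and 6 for rapamycin against aged (11.7% and 13.9%), and 5 and 2 for rapamycin against young (15.5% and 17.8%).

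Rapamycin oocyte 1 was low in some spindle motors and not in others. It lay below all 6 other oocyte libraries in 8 of 11 spindle kinesins tested and in 13 of 26 kinesins, against 36.4% of all genes, and above them in 4, against 29.1%. Kif22 had 4.02 CPM there, against 97.5 to 130 CPM in the others, the widest spread of any kinesin within a group of oocytes (SD 2.74 on the log2 scale over the rapamycin oocytes). Kif2c had 8.04 CPM, against 51.4 to 158 CPM, and Kif4 32.4 CPM, against 174 to 228 CPM. Kif9 and Kifc1 had 0 counts in it. Cytokinesis motors went both ways. Kif20b and Kif14 were as high as elsewhere, at 338 and 178 CPM, against 268 to 374 and 79.6 to 176 CPM. Kif23 and Kif20a were below all others, at 509 and 108 CPM, against 981 to 1484 and 144 to 374 CPM. The 12 markers of cumulus and granulosa cells summed to 209 CPM in this library, with 7 of 12 at 10 counts or more, against 37.6 to 95.2 CPM and 1 to 5 of 12 in the others. Fshr and Amh were at 0 in it and Inha was at 76.9 CPM. The 8 markers of dividing cells and neurogenesis summed to 7007 CPM in it, against 3453 to 4666 CPM in the others, with 5 of 8 at 10 counts or more in each library and Neurod1 at 0 in all. Ccnb1 alone gave 6373 CPM of that sum, and it had at least 3090 CPM in every oocyte library. Mki67 and Pcna were also highest in rapamycin oocyte 1, at 217 and 387 CPM, while Top2a was lowest in it, at 24.7 CPM. The part of cells other than oocytes in its kinesin levels was not tested.

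In hippocampus, no kinesin passed the threshold for maternal age or rapamycin. In edgeR 34 kinesins were tested and 0 called in each comparison, against 0.0471% of 14877 genes for aged against young mothers, 0% for rapamycin against aged and 0.0538% for rapamycin against young. DESeq2 also called 0 in each (0.350%, 0.0874% and 0.242% of the 14877 genes in the same order). For rapamycin against aged, DESeq2 gave an adjusted p to only 13140 genes, and several kinesins, Kif24 and Kif20b among them, received none. In edgeR an unadjusted p under 0.05 was reached by 0, 3 and 2 kinesins. The libraries did not overlap in 0 kinesins higher and 1 lower for aged against young (2.92% and 2.52% of genes), 5 and 2 for rapamycin against aged (5.01% and 4.88%) and 3 and 1 for rapamycin against young (2.93% and 2.10%).

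Kif13b, a motor that binds membrane phosphoinositides through its adaptor, and Kif13a were highest in rapamycin offspring. Kif13b had 30.1, 24.8 and 26.8 CPM in rapamycin offspring, 17.7, 23.8 and 13.8 CPM in aged offspring and 17.4, 18.1, 22.5 and 17.8 CPM in young offspring. All rapamycin libraries were above all 7 others, by a narrow gap. The log2 fold changes were 0.56 ± 0.20 against aged and 0.53 ± 0.18 against young offspring, which share the rapamycin libraries (edgeR adjusted p = 0.796 and 0.999). Kif13a had 32.4, 38.4 and 31.9 CPM in rapamycin offspring, 27.0, 36.8 and 27.8 CPM in aged offspring and 23.6, 22.0, 29.5 and 22.4 CPM in young offspring. It was above young offspring without overlap, at 0.49 ± 0.16, and the change of aged against young was 0.33 ± 0.16 (edgeR adjusted p = 0.999 and 0.990).

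The remaining members named by the smallest p were smaller or near the floor. Kifc3 averaged 54.9 ± 6.35 CPM in rapamycin offspring, 68.4 ± 5.23 CPM in aged offspring and 56.2 ± 7.69 CPM in young offspring (SD, n = 3, 3 and 4). Kif5c averaged 1205 ± 236 CPM in rapamycin and 979 ± 97.6 CPM in young offspring, with rapamycin offspring 2 at 1477 CPM as the highest library. Kif24 had 2.64, 1.31 and 1.34 CPM in rapamycin offspring, against 0.834, 0.610 and 0.903 CPM in aged offspring, and Kif20b 0.355, 0.435 and 0.291 CPM, against 1.06, 0.443 and 0.853 CPM. Neither overlapped between the groups, at 1.17 ± 0.42 for Kif24 and -1.11 ± 0.43 for Kif20b (edgeR adjusted p = 0.796 for both), and Kif20b lay near the floor of 3 counts, 0.148 to 0.183 CPM.

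Single hippocampus libraries stood out within their groups. Kif17 had 5.57 CPM in young offspring 2, against 15.7 to 28.5 CPM in the other young offspring, the widest spread within a hippocampus group (SD 1.05 on the log2 scale). In young offspring 2, 9 of 17 transport kinesins were the lowest of all 10 libraries, against 18.7% of all genes, with a median deviation of -0.37 on the log2 scale from each gene's median. Kif1a had 788 CPM in it, against 890 to 1534 CPM in the other 9, and Kif1b 528 CPM, against 655 to 1029 CPM. Of the 6 cilia kinesins, 3 (Kif6, Kif9 and Kif19a) were highest in it, against 18.7% of genes, and the 8 markers of choroid plexus and ependyma summed to 116 CPM there with 7 of 8 at 10 counts or more, against 26.0 to 83.1 CPM and 3 to 8 of 8 in the other 9. The part of these cells was not tested. Kif5a moved otherwise: it had 5902 CPM in rapamycin offspring 2, against 1974 to 3378 CPM in the other 9. That library was also the highest for 6 of 17 transport kinesins, against 17% of genes, as was rapamycin offspring 1, against 17.6%. Kif1a was highest in rapamycin offspring 1 and Kif5a in rapamycin offspring 2.

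Markers of oligodendrocytes, the myelin-forming cells, varied among the same libraries. The 6 genes, all at 10 counts or more in every offspring library, summed to 2634, 9649 and 4743 CPM in rapamycin offspring, 7631, 9857 and 4084 CPM in aged offspring and 3020, 9693, 3851 and 3930 CPM in young offspring. Kif1c had 109, 239 and 121 CPM in rapamycin offspring, 168, 203 and 142 CPM in aged offspring and 116, 188, 114 and 111 CPM in young offspring. Both were high in rapamycin offspring 2, aged offspring 1 and 2 and young offspring 2. Kif5b had 249, 392 and 279 CPM in rapamycin offspring, 321, 326 and 291 CPM in aged offspring and 243, 328, 265 and 236 CPM in young offspring, and was high in the same libraries. Kif3a had 190, 111 and 171 CPM in rapamycin offspring, 124, 127 and 151 CPM in aged offspring and 170, 124, 182 and 172 CPM in young offspring, and was low in them. The 10 neuron markers, all at 10 counts or more, summed to between 11747 CPM in aged offspring 1 and 14108 CPM in young offspring 4. In each group the library numbered 2 had the highest oligodendrocyte sum, the highest Kif1c and the highest Kif5b. The labels do not say what the numbers mark. The part of cell composition in these levels was not tested.

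**Figure D5:**
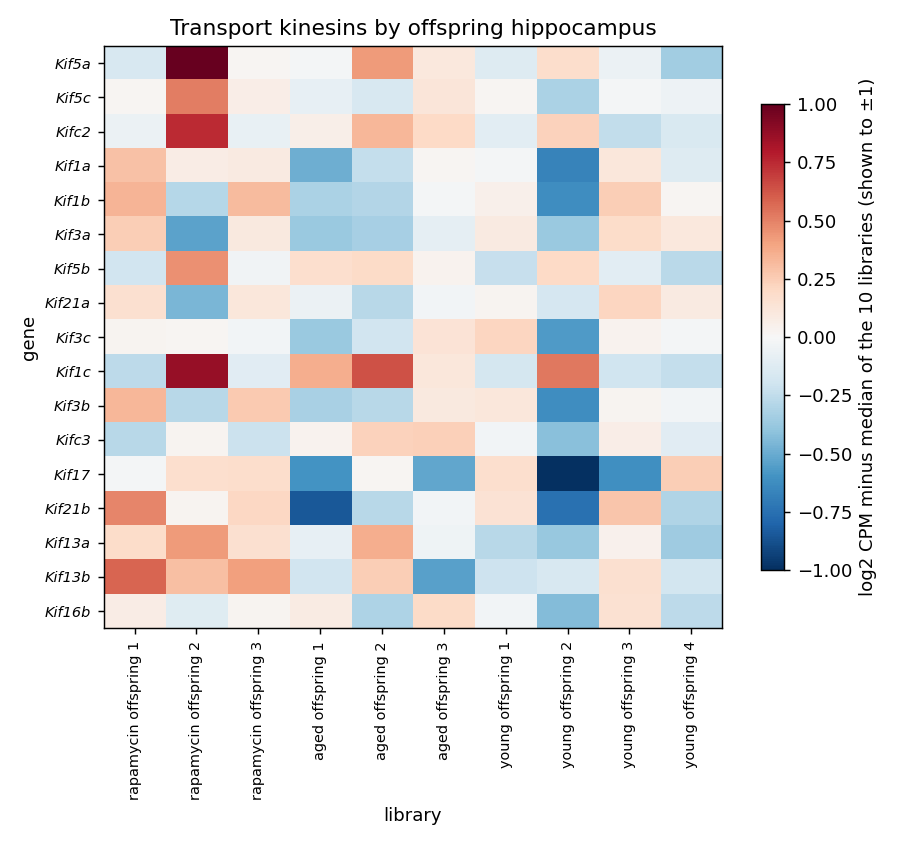
log2 CPM of the 17 transport kinesins in each offspring hippocampus minus the median of the 10 libraries, in red where higher and blue where lower, with rapamycin, aged and young offspring from left to right. Young offspring 2 is blue for most genes, with a median of -0.37, and Kif5a and Kif1c are red in rapamycin offspring 2, at 5902 and 239 CPM.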

How the data were processed

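RNA was sequenced from 7 oocyte and 10 hippocampus libraries. The deposited files hold raw counts of reads per gene symbol, 1 file per library; reads were aligned with STAR and counted with HTSeq on mm10, per the submitters' processing notes, with versions, annotation release and strand setting not given in the sources used here. The 5 count summaries that name no gene were left out; the largest were reads not uniquely aligned (5.09% to 15.9% of the gene total) and reads in no gene (6.09% to 16.0%).

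Counts were fitted across all genes with edgeR 4.0.16 in R 4.3.3 (TMM, filterByExpr, glmQLFTest, Benjamini-Hochberg, adjusted p of 0.05), within each tissue on its 3 groups, and on all 17 libraries for oocytes against hippocampus as the mean of 3 oocyte groups minus the mean of 3 hippocampus groups. The fits were tested on simulated data. DESeq2 1.42.0, RLE factors, library totals, other filters, thinning, a replicate block and leaving out libraries were alternatives. TPM used the union of exons in GENCODE M21 (GRCm38, the same build as mm10). Promoter windows are from RefSeq GRCm38.p6.

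A count of 3 corresponds to 0.360 to 0.767 CPM in oocyte and 0.148 to 0.183 CPM in hippocampus libraries. Intervals on ratios cover counting error only. Replicates differed by more than sampling noise (chi-square per degree of freedom at least 12.8). Where the labels do not say that libraries came from separate animals, p-values measure the spread between libraries, which may be technical. The labels do not say that replicate numbers mark pairs, and the numbers were checked through deviations from group means. Same-numbered libraries correlated at 0.18, 0.64 and 0.32 between rapamycin and young offspring. Differently numbered ones reached similar values: 0.52 for rapamycin offspring 1 with young offspring 3, and 0.31 for aged offspring 3 with young offspring 1. In the other comparisons same-numbered libraries correlated at 0.21 or less, with values below 0.1 in each. Hippocampus libraries numbered 2 correlated positively in all 3 comparisons, at 0.64, 0.195 and 0.21, and 0.64 was the highest value of any pair. With the replicate block the biological coefficient of variation in hippocampus was 19.7%, against 23.5% without it. The labels do not say what the numbers mark, so no pairing is taken. Whether same-numbered hippocampus libraries shared a step of preparation was not tested.

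Values per library are given for the 3 members of each role list with the largest called fold change, the 2 with the highest TPM in each tissue, the 3 with the smallest p in each comparison within a tissue, and the most variable in each tissue. Others named were chosen after their values were seen. The members, role lists, partner lists and markers were chosen with earlier results of these data known. The design text speaks of 9 oocyte samples, and 7 are analysed here. Not every overlap between annotated genes is reported here.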

Additional observations from a re-analysis of the deposited data

Results flagged for a closer look

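In young offspring, 1 library lay far from the other 3 for 4 of the 34 kinesins examined, by a Dixon outlier test with a nominal rate of about 1 in 20. The test was run on kinesins only, so the share of all genes set apart is not known. Young offspring 2 was the highest of the 10 hippocampus libraries for 18.7% of all genes and the lowest for 18.7%. Kif1c had 188 CPM in young offspring 2, against 111 to 116 CPM in the other young offspring. Kif9 had 5.999 CPM in young offspring 2, against 3.81 to 3.97 CPM. Markers of choroid plexus and ependyma summed to 116 CPM in that library, against 35.4 to 38.3 CPM in the other young offspring. Kif11 had 1.42 CPM in young offspring 2, against 0.905 to 0.939 CPM. Kif13b had 22.5 CPM in young offspring 3, against 17.4 to 18.1 CPM.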

How the results depend on the processing

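Kinesins called for aged against young oocytes numbered 0, but 1 with DESeq2, 2 with only the 2 groups fitted, 0 to 2 when single libraries were left out (2 without rapamycin oocyte 1), and 3 with DESeq2 without rapamycin oocyte 1. The last setting, chosen after seeing the data, also gave 2 for rapamycin against aged oocytes. With the replicate block the count was 0 in all 6 comparisons within a tissue, so blocking by replicate number changed no call. The spindle share of kinesin TPM was 82.6% in oocytes and 0.224% in hippocampus with the longest transcript as length, and 0.144% in hippocampus as CPM without length. Signs turned between tissues for Kifc3, which was called higher in the main fit, and for members not called there. Kifc3 was 0.54 in the main fit and -0.15 with library totals (edgeR adjusted p = 0.0202 and 0.519). Kif2a was -0.47 with library totals and 0.48 in thinned libraries, called in opposite directions (edgeR adjusted p = 0.0196 and 0.0151). It ranged from -0.070 (without aged oocyte 2) to 0.41 when single libraries were left out. Kif3a was 0.13 and Kif9 0.14 in thinned libraries, and Kif9 ranged from -0.56 to 0.11 when single libraries were left out. The cause was not tested. Depth limits hippocampus values of the spindle list and oocyte values of the neuronal motors, many of which rest on under 100 counts.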
